A study of Arabidopsis thaliana with 12 samples.

Results

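Transposable element genes are loci that carry the remains or the working copies of transposons. The set described here is every locus that the deposited table's annotation types as a transposable element gene (TE gene), 3894 of 36917 loci, and membership follows that annotation and no measured value. They lie on all 5 nuclear chromosomes, with 682, 825, 874, 711 and 802 on chromosomes 1 to 5. RNA was sequenced from whole Arabidopsis thaliana plants at the 4-leaf stage. There were 4 genotypes with 3 libraries each: wild type (Col-0), djc31 (T-DNA line SALK_034886), djc62 (T-DNA line SALK_050913) and the double mutant djc31 djc62. Each single mutant is 1 insertion line, and all plants grew on soil under 16 h of light at 100 µmol photons per square metre and second and 21 °C, with 8 h of dark at 16 °C and no stress named in the labels. DJC31 and DJC62 encode co-chaperones with tetratricopeptide repeats and a J domain, and the study asked how their loss changes gene expression.

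Retrotransposons move through an RNA copy. Copia-like and gypsy-like elements carry long terminal repeats and encode gag and pol proteins, LINEs lack these repeats, and the short Sadhu elements encode no protein. DNA transposons such as the Mutator-like, CACTA-like and hAT-like elements move as DNA with the help of a transposase. In Arabidopsis most of these loci are kept silent by DNA methylation, histone H3 lysine 9 methylation and small RNAs, a system whose known parts include the methyltransferase MET1, the chromatin remodeller DDM1 and the RNA polymerases IV and V.

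The libraries held 13.6 to 31.08 M reads counted in loci, lowest in djc31 replicate 2. Values below are read counts divided by 1 size factor per library, so they compare a locus between libraries but are not per length and do not rank loci against each other. The target genes were low where the labels place the insertion. The mean value of DJC31 was 727 ± 49.3 (SD, n = 3) in wild-type plants, 115 ± 30.8 with the djc31 insertion alone and 47.5 ± 7.79 with both insertions. The mean value of DJC62 was 516 ± 76.1 in wild-type plants, 161 ± 49.95 with the djc62 insertion alone and 75.7 ± 17.6 with both. Whether the replicates are separate sowings or extractions is not in the labels, so p-values rest on the spread among these libraries, part of which can be technical. In whole plants, fewer cells of a type and less RNA per cell cannot be told apart. How reads from near-identical element copies were assigned, and whether strand was used, is not stated in the notes at hand. A value of 1 copy may therefore include reads of another, or lack reads that match several copies.

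Most TE genes had no counted read in these libraries. No read was counted for 2711 of the 3894, and another 890 had 1 to 9 reads over the 12 libraries together. In all, 1183 TE genes had at least 1 read and 107 had reads in every library. Of the TE genes, 154 (3.95%) reached 10 or more in 3 or more libraries and were tested, against 71.3% of the 26931 protein-coding loci. The 1029 TE genes with reads that were not tested held 1.59 to 2.32% of TE gene reads in a genotype, and the highest value any of them reached in 1 library was 62.5, at AT3G28915.

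The families differed widely in how many members had enough counted reads to be tested. Families of near-identical copies may be counted low if reads matching several copies were left out, which was not tested. Of the Sadhu elements, 7 of 15 (46.7%) were tested. Among copia-like elements 48 of 499 (9.62%) were tested, and among LINEs and other non-LTR elements 25 of 339 (7.37%). The hAT-like transposases had 9 tested of 77 (11.7%), the Mutator-like 10 of 281 (3.56%) and the CACTA-like 7 of 345 (2.03%). Athila, a gypsy family concentrated around the centromeres, is the largest named family with 550 members, and 1 of them was tested. The remaining gypsy-like elements had 9 tested of 375, and 26 of the 1091 TE genes whose annotation names no family were tested. The other 12 tested members came from the remaining classes.

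TE genes took a small part of the reads. Their share of all counted reads was 0.0875%, 0.0961% and 0.0710% in the wild-type libraries, 0.0821%, 0.102% and 0.114% in djc31, 0.0870%, 0.111% and 0.113% in djc62, and 0.125%, 0.119% and 0.110% in the double mutant. The means were 0.0848% ± 0.0128, 0.0992% ± 0.0159, 0.104% ± 0.0145 and 0.118% ± 0.00737 (SD, n = 3). By this share the double-mutant libraries all lay above the wild-type libraries, while both single mutants overlapped with wild type. The order of the mutants depended on the scale. As summed normalised values djc31 was highest, with 28065 ± 2634, against 25563 ± 2427 for djc62, 25470 ± 921 for the double mutant and 21944 ± 2214 for wild type. By these sums the djc31 libraries (25031 to 29766) and the double-mutant libraries (24539 to 26380) all lay above wild type (19595 to 23992). The djc62 libraries (22774 to 27192) overlapped with wild type. The locus with the most reads, SADHU1-1 (AT2G10410), alone held 10.2 to 19.8% of TE gene reads in a library, and the top 10 loci held 45.2 to 52.7%.

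Few loci made up much of the difference from wild type in these sums. The 23 TE genes called higher in all 3 mutants, described next, summed to 698 ± 84.5 in wild type and to 6701 ± 371 (djc31), 6272 ± 193 (djc62) and 6399 ± 248 (double mutant). The 13 called lower in all 3 mutants summed to 2822 ± 287 in wild type and to 1078 ± 118, 1011 ± 128 and 865 ± 22.7 in the mutants. The other 3858 TE genes summed to 18425 ± 1883 for wild type, 20286 ± 2210 for djc31, 18280 ± 2242 for djc62 and 18206 ± 681 for the double mutant, and these ranges overlapped. The first 2 groups were picked by their change, so their sums are a description.

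**Figure D1:**
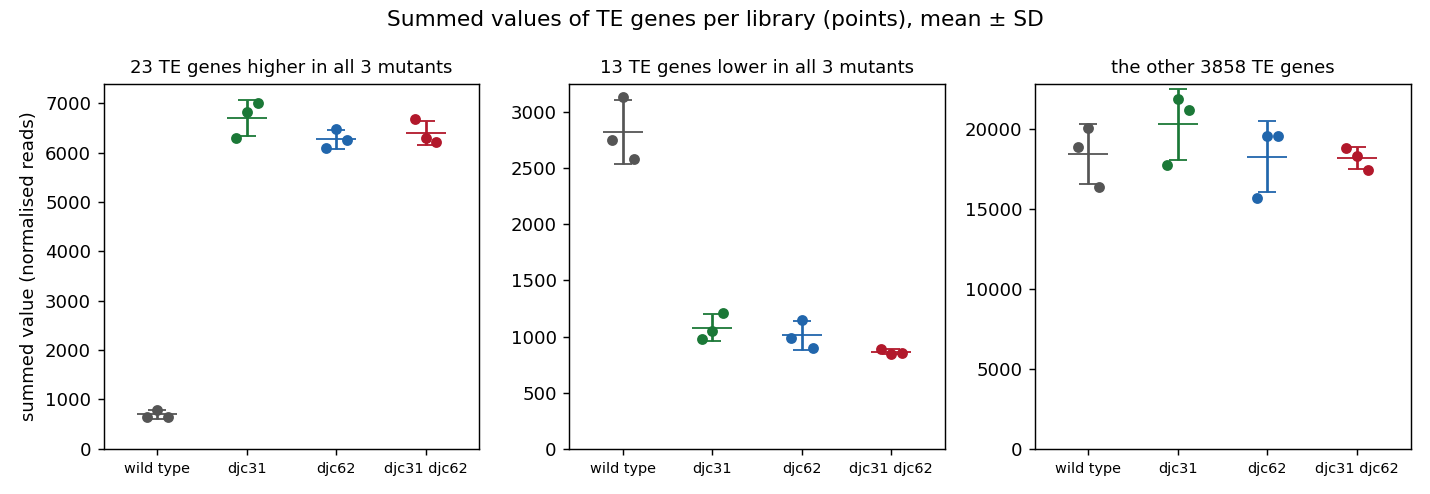
Summed normalised values of TE genes in each library (points), with the mean and SD over 3 libraries per genotype (bars), for the 23 loci called higher in all 3 mutants, the 13 called lower in all 3, and the other 3858. The first group rises from 698 in wild type to 6272 or more in each mutant, the second falls from 2822 to between 865 and 1078, and the third overlaps between genotypes.

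Of the 154 tested TE genes, 31 were higher and 24 lower in djc31 than in wild type, 29 higher and 28 lower in djc62, and 36 higher and 20 lower in the double mutant (limma on log2 of the value + 1, Benjamini-Hochberg adjusted p under 0.05 over all 19975 tested loci). Over all tested loci the shares called higher were 13.3%, 13.7% and 13.8%, and those called lower were 14.2%, 13% and 15.5%. The TE genes' shares were 20.1%, 18.8% and 23.4% for higher and 15.6%, 18.2% and 12.99% for lower. The median log2 change of the 154 was near 0 in each comparison, at -0.06, 0.00 and 0.16, against -0.01, 0.00 and 0.02 over all loci. The filter shapes these shares, because a locus that is silent in wild type is tested only if a mutant expresses it. Among the 125 TE genes that reached 10 in at least 1 wild-type and at least 1 mutant library, 14 were higher and 18 lower in djc31, 10 and 23 in djc62, and 15 and 15 in the double mutant, which is 25.6%, 26.4% and 24% called. Over all tested loci 27.5%, 26.7% and 29.2% were called. Of the 19429 loci that meet the same condition, 12.8%, 13.02% and 12.8% were higher and 14.4%, 13.2% and 15.7% lower.

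The lower counts leaned on the 3 wild-type libraries. With wild-type replicate 1, 2 or 3 left out and the filter applied again, the TE genes lower than wild type were 11, 12 and 17 in djc31, 18, 17 and 22 in djc62, and 11, 10 and 11 in the double mutant. Of the losses, 5 or 6 in each case were loci that missed the filter once a wild-type library was gone. The counts of higher TE genes stayed between 25 and 37 with any 1 library left out. Among the 51 tested TE genes with a mean value of at least 100, wild-type replicate 3, djc31 replicate 1 and djc62 replicate 1 lay low within their genotypes, with median log2 deviations of -0.10, -0.15 and -0.13, while the other libraries lay between -0.04 and 0.09. These 3 libraries also stood at one end of the leading component of within-genotype deviations over 14770 loci, which held 36.1% of that variance, and its part in the TE gene calls was not tested beyond leaving them out. Without them the counts of TE genes higher and lower than wild type were 31 and 23, 29 and 26, and 33 and 23.

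**Figure D2:**
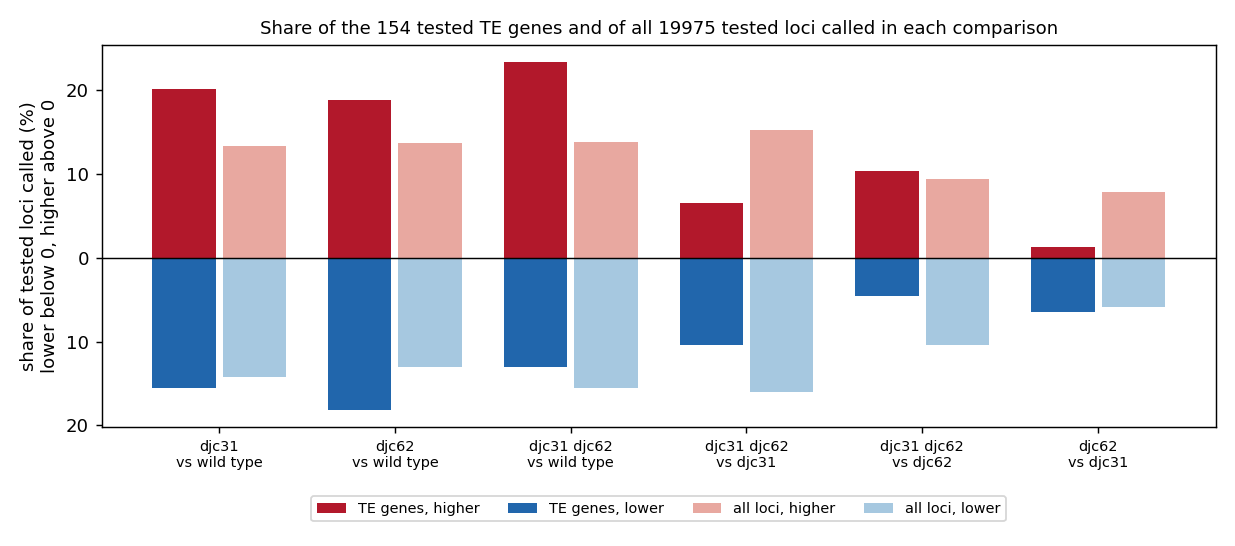
Share in percent of the 154 tested TE genes (dark bars) and of all 19975 tested loci (light bars) called higher (above 0) or lower (below 0) in each comparison. The TE gene bars include loci tested only because the mutants, or wild type alone, express them. Of the 125 TE genes that reached 10 in wild type and a mutant, 11.2%, 8% and 12% were higher than wild type in djc31, djc62 and the double mutant.

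Part of the calls against wild type were alike in all 3 mutants, which share the wild-type libraries as control. Of the 154 TE genes, 23 were higher in all 3 mutants (14.9%, beside 4.72% of all tested loci) and 13 were lower in all 3 (8.44%, beside 4.88%). In 73 no mutant was called. Of the 23, 16 had no wild-type library with a value of at least 10, so they were tested because the mutants expressed them, and 5 of the 13 reached 10 in wild type alone. Among the 125 TE genes that reached 10 in wild type and a mutant, 7 (5.6%) were higher and 8 (6.4%) lower in all 3, beside 4.17% and 4.85% of the 19429 loci under the same condition. The labels do not give the origin of the wild-type seed, so at loci alike in all 3 mutants a difference between the seed stocks and an effect of the insertions cannot be told apart. By family the 23 were 8 LINE or non-LTR, 7 copia-like, 3 gypsy-like, 2 Mutator-like, 1 CACTA-like, 1 hAT-like and 1 with no family named. The 13 were 6 copia-like, 2 LINE or non-LTR, 2 CACTA-like, 1 Sadhu, 1 hAT-like and 1 with no family named. The 23 fell 6, 1, 8, 3 and 5 on chromosomes 1 to 5, and the 13 fell 0, 1, 4, 3 and 5, out of 26, 30, 35, 25 and 38 tested. Of all tested loci, 5.28%, 3.21%, 5.70%, 3.35% and 5.21% on chromosomes 1 to 5 were higher in all 3 mutants. Those lower in all 3 were 5.52%, 4.79%, 4.92%, 4.50% and 4.54%. No Athila element was among the 23 or the 13, but only 1 was tested, so its absence says little about that family.

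**Figure D3:**
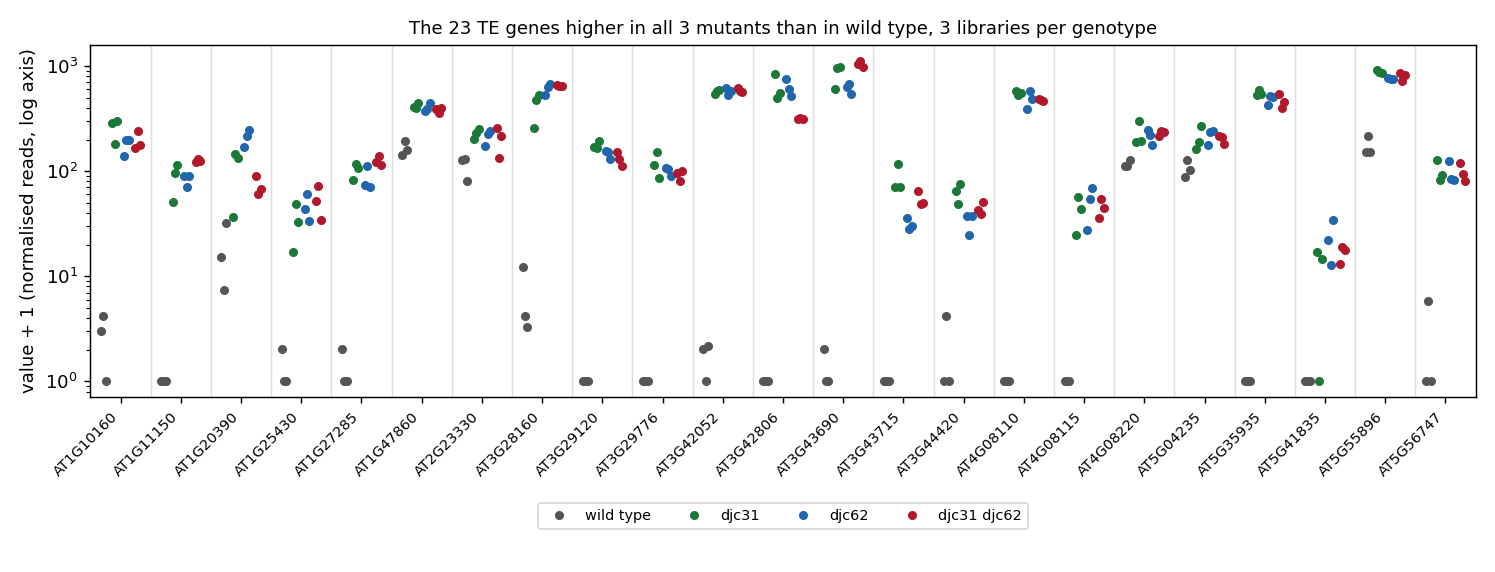
Values of the 23 TE genes called higher in all 3 mutants, as value + 1 on a log axis, with 3 points per genotype. In most loci the wild-type points sit at or near 0 reads and the 9 mutant points lie close together, while AT1G47860, AT2G23330, AT4G08220, AT5G04235 and AT5G55896 have clear wild-type values.

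Among these were 9 loci that were silent in wild type and transcribed in every mutant library. They had at most 3 reads over the 3 wild-type libraries together and a value of at least 50 in each of the 9 mutant libraries. This pattern was met by 34 of all 36917 loci (0.0921%), and by 9 of the 3894 TE genes (0.231%). The opposite pattern was at least 50 in each wild-type library and at most 3 reads over the 9 mutant libraries together. This limit on silence is stricter, as it spans 9 libraries instead of 3. The opposite pattern was met by 0 TE genes and by 3 loci in all (0.00813%). No locus of any type was silent in, or read in, one of the mutant genotypes alone by the same limits.

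The Mutator-like transposase gene AT3G42806 on chromosome 3 had no wild-type read. Its values were 847, 498 and 551 in djc31, 749, 609 and 521 in djc62, and 311, 319 and 309.6 in the double mutant. All 9 mutant libraries lay far above wild type, and the double mutant lay below both single mutants without overlap. Set against 3 reads over the wild-type libraries, the means were at least 637-fold, 631-fold and 315-fold higher (adjusted p = 2.4e-15, 2.7e-15 and 1.4e-14). The double mutant was lower than djc31 by a log2 change of -0.97 ± 0.23 (SE, adjusted p = 0.0040) and than djc62 by -0.98 ± 0.23 (adjusted p = 0.0053).

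The CACTA-like transposase gene AT4G08110 on chromosome 4 and the copia-like AT5G35935 on chromosome 5 also had no wild-type read. AT4G08110 had 579, 535 and 549 in djc31, 386, 579.9 and 483 in djc62, and 484, 475 and 466 in the double mutant. AT5G35935 had 535, 589 and 539 in djc31, 424, 521 and 504 in djc62, and 545, 402 and 455 in the double mutant. At both, the 3 mutants overlapped, and no comparison among mutants was called. The means were at least 558-fold, 486-fold and 479-fold higher than wild type at AT4G08110 and at least 558-fold, 487-fold and 471-fold higher at AT5G35935.

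AT4G08110 did not stand alone in its stretch of chromosome 4. It neighbours the gypsy-like AT4G08100, which in turn neighbours the gypsy-like AT4G08115, by gene order in the TAIR10.1 annotation. AT4G08115 was likewise at 0 in wild type, with 23.9, 55.9 and 42.3 in djc31, 26.8, 53.4 and 67.8 in djc62, and 34.7, 53.6 and 43.5 in the double mutant. AT4G08100 was at 0 in wild type and low in the mutants, with means of 1.43, 12.9 and 8.74 for djc31, djc62 and the double mutant. It was called higher in djc62 (log2 change 3.41 ± 1.02, adjusted p = 0.019) and in the double mutant (3.19 ± 1.02, adjusted p = 0.025).

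Chromosome 3 held 5 of the 9 silent-to-read loci, with AT3G42806 among them. The copia-like AT3G43690 had 1 wild-type read. Its values were 601, 949.6 and 971 in djc31, 636, 671 and 544 in djc62, and 1055, 1124 and 978 in the double mutant. The double mutant lay above djc62 without overlap, by a log2 change of 0.77 ± 0.25 (adjusted p = 0.041). The gypsy-like AT3G42052, with 2 wild-type reads, was the most even of the group, with 538, 584 and 593 in djc31, 616, 528 and 577 in djc62, and 620.5, 577 and 559.8 in the double mutant. Its log2 changes were 8.45, 8.46 and 8.49, each ± 0.24.

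The hAT-like transposase gene AT3G29120 had no wild-type read and values of 169, 165 and 193 in djc31, 156, 153 and 129 in djc62, and 153, 130.2 and 111 in the double mutant. The copia-like AT3G29776 had none either, and 114, 150.4 and 84.5 in djc31, 107, 104 and 88.6 in djc62, and 95.5, 78.9 and 99.6 in the double mutant. The mutants overlapped at both loci. On chromosome 1, the copia-like AT1G27285 (1 wild-type read) reached 69.3 to 139 and AT1G11150, annotated as a pseudogene of an endonuclease and reverse transcriptase protein, reached 50.4 to 131 from no wild-type read. The 9 loci were picked by limits on these same values, so their calls against wild type were close to given and add no support. All 9 were past the threshold in all 3 comparisons, with limma log2 changes between 6.05 and 9.70 that depend on the pseudocount.

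Further loci came close to this pattern. The copia-like AT3G28160 had 11.2, 3.21 and 2.32 in wild type, 259, 471 and 526 in djc31, 525, 634 and 676 in djc62, and 665, 639.9 and 640.1 in the double mutant. The wild-type libraries held 17 reads of it in all, and the mutant means were 75.1-fold, 110-fold and 116-fold higher (adjusted p = 8.5e-10, 2.5e-10 and 2.3e-10). The LINE AT1G10160 had 2.03, 3.21 and 0 in wild type, 289, 180.5 and 297 in djc31, 140, 198 and 196 in djc62, and 166, 239.6 and 175 in the double mutant. At both loci wild type and mutants were far apart. The mutants overlapped at AT1G10160, while at AT3G28160 the djc31 libraries all lay below the double-mutant libraries.

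Smaller loci of the kind were the copia-like AT5G56747, with a mean of 1.61 in wild type and 95.8 to 99.8 in the mutants, and the LINE AT1G25430, with 0.339 against 31.8 to 52.0. AT3G44420, with no family named, had 1.07 against 32.0 to 62.1. The non-LTR locus AT3G43715 was at 0 in wild type and differed between the single mutants, with 69.0, 116 and 69.3 in djc31 and 35.0, 27.1 and 29.3 in djc62. That difference was called (log2 change -1.41 ± 0.40 in djc62 against djc31, adjusted p = 0.027), and the double mutant lay between them at 63.3, 47.6 and 48.5. The lowest of the 23 was AT5G41835, at 0 in wild type and also at 0 in djc31 replicate 2, with means of 9.82, 21.98 and 15.6 in the mutants.

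The LINE AT5G55896 was expressed in wild type and several times higher in each mutant. It had 152, 217 and 149.6 in wild type, 914, 885 and 865 in djc31, 765, 757 and 746 in djc62, and 859, 723 and 813 in the double mutant. The genotype ranges of wild type and mutants were far apart, and the log2 changes were 2.37, 2.14 and 2.22, each ± 0.14 (adjusted p = 1.0e-09, 4.4e-09 and 3.4e-09). AT1G47860 and AT5G04235, both LINE or non-LTR, the copia-like AT2G23330 and the Mutator-like AT4G08220 rose by log2 changes between 0.82 and 1.35. AT1G47860 overlaps the neighbouring locus AT1G47845, and reads of the pair cannot be told apart without strand. The gypsy-like AT1G20390 rose most in djc62, with 14.2, 6.43 and 31.3 in wild type, 35.8, 144 and 132 in djc31, 169, 217 and 246 in djc62, and 88.5, 60.3 and 66.9 in the double mutant. Its double-mutant values lay below djc62 (log2 change -1.54 ± 0.49, adjusted p = 0.036).

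The mirror group of 13 held loci with more RNA in wild type than in the mutants. In 5 of them only wild type reached 10, while 8 reached 10 in a library of every genotype. The LINE AT2G01550 had 32.5, 29.7 and 35.9 in wild type, no read in djc31 or the double mutant, and 2 reads in djc62. The CACTA-like AT3G29650 had 39.6, 42.6 and 22.03 in wild type and the same number of mutant reads, and the LINE AT3G44425 had 17.3, 17.7 and 17.4 with again 2 mutant reads, both in djc62. Against a floor of 3 reads per genotype the wild-type means were at least 22.7-fold, 24.1-fold and 12.1-fold higher than djc31 and at least 40.1-fold, 42.6-fold and 21.4-fold higher than the double mutant. These 3 loci stayed below 50 in wild type, the limit that the silent-to-read loci passed.

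The copia-like AT3G29156 had the highest wild-type value among the loci that nearly vanished. It had 128, 173 and 183 in wild type, 5.31, 4.30 and 0 in djc31, 2.33, 0 and 0 in djc62, and 3.47, 1.49 and 0 in the double mutant (log2 changes -5.64, -6.75 and -6.17, each ± 0.86, adjusted p = 8.9e-05, 1.6e-05 and 4.9e-05). The copia-like AT3G45095 fell from 55.9, 68.3 and 95.1 to between 1.16 and 9.33 over the 9 mutant libraries. The hAT-like AT5G64685, which overlaps the protein-coding AT5G64680, fell from 167, 181 and 211 to between 6.99 and 49.0. In each of these the lowest wild-type library was above every mutant library.

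**Figure D4:**
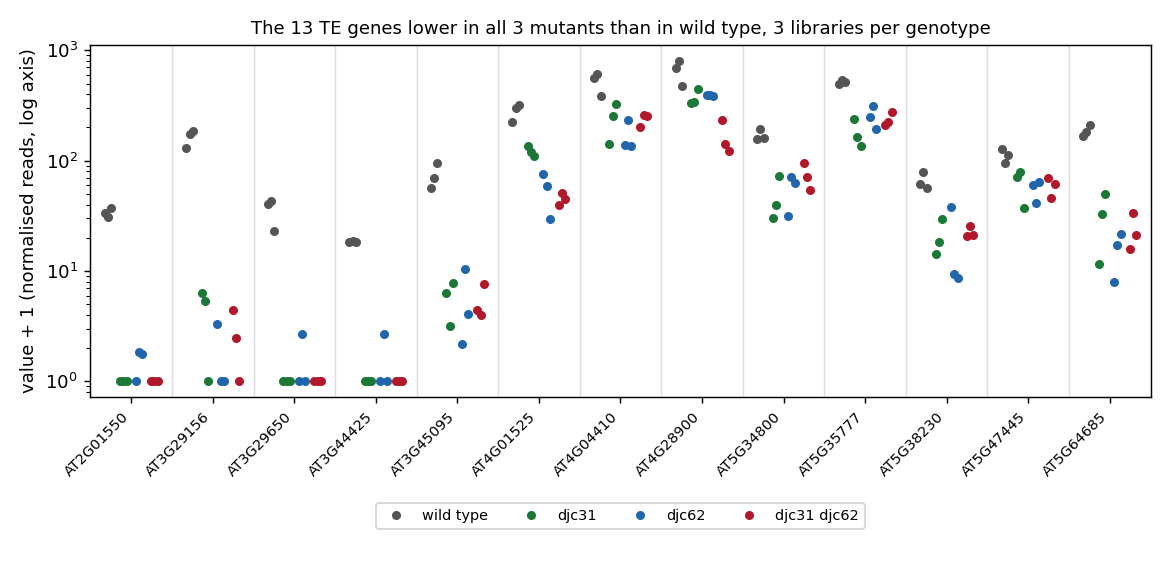
Values of the 13 TE genes called lower in all 3 mutants, as value + 1 on a log axis, with 3 points per genotype. At AT2G01550, AT3G29650 and AT3G44425 the mutant points sit at or near 0 reads, and at AT4G01525 and AT4G28900 the genotypes form steps.

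SADHU5-1 (AT4G01525), a non-coding Sadhu element, was graded over the genotypes. It had 226, 299.7 and 320.0 in wild type, 135, 118 and 109 in djc31, 74.6, 57.6 and 28.5 in djc62, and 39.0, 49.9 and 44.4 in the double mutant. Wild type, djc31 and djc62 did not overlap, and the double mutant lay within the range of djc62. The log2 change against wild type was -1.20 ± 0.29 in djc31 (adjusted p = 0.0047), -2.46 in djc62 and -2.63 in the double mutant, and djc62 was below djc31 by -1.26 ± 0.29 (adjusted p = 0.0094).

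The copia-like AT4G28900 was lowest in the double mutant. Its values were 689, 806 and 470 in wild type, 331, 337 and 445 in djc31, 395, 397 and 383 in djc62, and 234, 141 and 120.5 in the double mutant. The single mutants overlapped each other and lay below wild type, and the double mutant lay below all other libraries. The log2 change of the double mutant was -2.00 ± 0.22 against wild type (adjusted p = 5.0e-06), -1.21 ± 0.22 against djc31 (adjusted p = 8.2e-04) and -1.30 ± 0.22 against djc62 (adjusted p = 6.3e-04). The other members of the 13, AT4G04410, AT5G35777 and AT5G47445 (copia-like), AT5G38230 (CACTA-like) and AT5G34800 (no family named), fell by log2 changes from -0.90 to -2.15. AT5G34800 sits between AT5G34790 and AT5G34810, and all 3 had their highest mean in wild type, at 56.0, 170 and 28.3. AT5G34790 was called in djc31 alone (log2 change -1.10 ± 0.40, adjusted p = 0.047) and AT5G34810 in no comparison.

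Neighbouring loci shared the pattern in some cases, by TAIR10.1 gene order. Of the 17 of the 23 higher TE genes with a tested neighbour, 1 (5.88%) had a neighbour also higher in all 3 mutants, AT3G43715 beside AT3G06655. For other loci with that pattern the share was 149 of 792 (18.8%). Among tested loci without it, the shares were 4 of 97 TE genes (4.12%) and 6.14% of other loci. Of the 10 lower TE genes with a tested neighbour, 3 (30%) had a neighbour lower in all 3, against 107 of 832 (12.9%) other loci with that pattern. Without the pattern the shares were 10 of 104 TE genes (9.62%) and 6.75% of other loci. The 3 were AT3G45095 beside AT3G06955, AT5G35777 beside G6PD1, a plastid glucose-6-phosphate dehydrogenase, and AT5G47445 beside TIP2;3, a tonoplast aquaporin. AT1G10160, which was higher, lies next to PP2-A10, which was lower in all 3 mutants. No test was made of these shares.

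Some TE genes differed between the mutants, among them loci of the shared patterns above. The LINE AT3G32925 followed the djc31 insertion, with no read in the 3 wild-type and 3 djc62 libraries, 21.2, 17.2 and 8.45 in djc31, and 49.5, 33.5 and 24.3 in the double mutant. The djc31 and double-mutant libraries did not overlap with each other or with the rest. Its double-mutant mean was at least 35.99-fold above wild type, and the log2 changes were 3.97 ± 0.75 for djc31 (adjusted p = 7.3e-04) and 5.14 ± 0.75 for the double mutant (adjusted p = 8.0e-05). AT3G32925 overlaps the protein-coding AT3G32920, with means of 1.16, 2.82, 0 and 37.2 in wild type, djc31, djc62 and the double mutant. Reads of the pair cannot be told apart without strand.

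Between the double mutant and djc31, 10 TE genes were higher and 16 lower, together 16.9% of those tested beside 31.3% of all loci (15.3% higher, 16% lower). Between the double mutant and djc62, 16 were higher and 7 lower, 14.9% beside 19.7% (9.38% higher, 10.4% lower). Between djc62 and djc31, 2 were higher and 10 lower, 7.79% beside 13.8% (7.91% higher, 5.85% lower). The count higher than djc31 rested on single libraries, being 18 without djc31 replicate 3 and 6, 6 and 7 without double-mutant replicate 1, 2 or 3. The 16 higher than djc62 became 10 without double-mutant replicate 2, and the 7 lower became 4 without djc62 replicate 2 or 3. The 2 higher in djc62 than djc31 became 4 and 5 without djc31 replicate 1 or 3, 6 without djc62 replicate 1, and 1 without djc62 replicate 2 or 3. With wild-type replicate 3, djc31 replicate 1 and djc62 replicate 1 all left out, the counts were 16 and 18, 21 and 10, and 6 and 13.

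In the double mutant 4 TE genes were higher than in each of the other 3 genotypes (2.60%, beside 3.21% of all loci). The gag gene AT1G47565 had 161, 87.6 and 107 in wild type, 91.6, 107 and 98.9 in djc31, 85.0, 105 and 136 in djc62, and 273, 254 and 228 in the double mutant. The copia-like AT3G62455 had 66.1, 57.0 and 45.2 in wild type, 25.2, 51.6 and 44.0 in djc31, 25.6, 72.1 and 66.2 in djc62, and 164, 196 and 160 in the double mutant. At both loci the first 3 genotypes overlapped and the double mutant stood apart, by log2 changes of 1.12 to 1.33 (each ± 0.23) and 1.62 to 2.13 (each ± 0.36).

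The other two, AT3G21030 and AT3G21040, belong to a run of 5 neighbouring copia-like TE genes on chromosome 3, AT3G21010 to AT3G21050, which ends beside PSBTN, a photosystem II subunit gene. AT3G21030 had 25.4, 23.3 and 16.2 in wild type, 17.3, 8.59 and 13.5 in djc31, 22.1, 13.6 and 27.7 in djc62, and 59.9, 67.7 and 61.1 in the double mutant. AT3G21040 had 21.3, 24.1 and 19.7 in wild type, 13.3, 12.9 and 7.61 in djc31, 4.66, 5.09 and 9.24 in djc62, and 65.1, 55.1 and 69.4 in the double mutant. AT3G21040 was thus below wild type in djc62 (log2 change -1.68 ± 0.42, adjusted p = 0.0066) and above it in the double mutant (adjusted p = 0.013). AT3G21020 and AT3G21050 were lower in djc62 (-1.01 ± 0.29 and -1.40 ± 0.46, adjusted p = 0.015 and 0.033) and not called in the double mutant against wild type, and AT3G21010 was called in no comparison. PSBTN itself had its lowest mean in the double mutant, 28771, against 42419 in wild type.

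**Figure D5:**
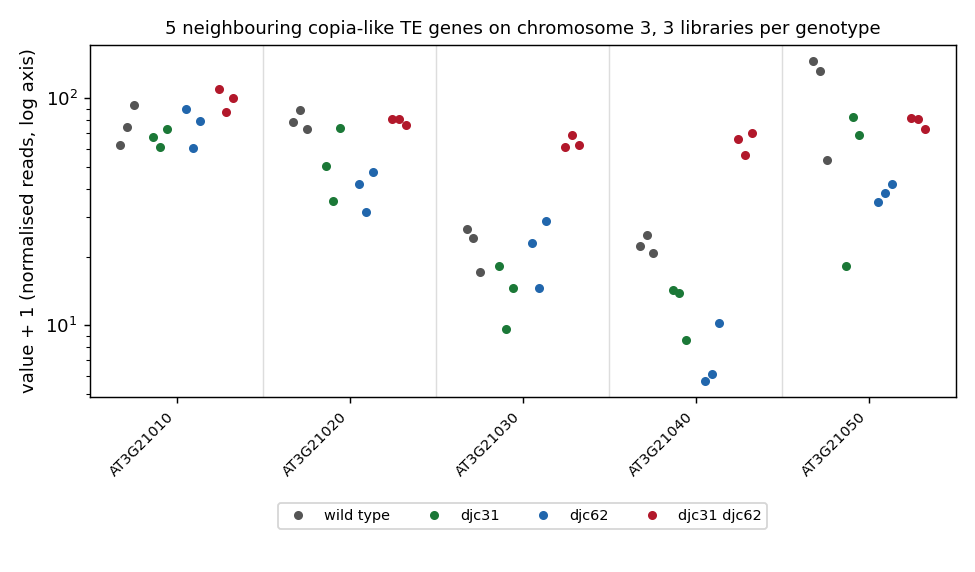
Values of 5 neighbouring copia-like TE genes on chromosome 3, as value + 1 on a log axis, with 3 points per genotype. At AT3G21030 and AT3G21040 the double-mutant points, 55.1 to 69.4, stand above all other libraries.

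The reverse, double mutant below each of the other genotypes, held for AT4G28900 above and for AT2G11150, a pseudogene of replication protein A1 (1.30% of the tested TE genes, beside 3.43% of all loci). AT2G11150 had 21.3, 40.97 and 16.2 in wild type, 22.6, 40.8 and 37.2 in djc31, 23.3, 47.5 and 41.6 in djc62, and 3.47, 10.4 and 12.6 in the double mutant. SADHU1-1 (AT2G10410) was higher in djc31, with 4964, 5272 and 3785 against 2793, 3442 and 3534 in wild type (log2 change 0.51 ± 0.12, adjusted p = 0.0041), and its djc62 and double-mutant values, 2599 to 3109, lay below all djc31 libraries. The related SADHU1-3 (AT5G28626) was also higher in djc31 (0.68 ± 0.20, adjusted p = 0.018), while SADHU1-2 (AT1G30835) was not called in any comparison, with genotype means between 541 and 632. The Ulp1 protease pseudogene AT1G35612 was higher in djc31, at 1380, 1313 and 1563, and lower in the double mutant, at 892, 844 and 791, than in wild type, at 1066, 1221 and 943 (0.40 ± 0.12 and -0.35 ± 0.12, adjusted p = 0.019 and 0.038).

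Several abundant TE genes showed no call against wild type. The LINE AT2G11240 had means of 1961, 1757, 2250 and 1818 in wild type, djc31, djc62 and the double mutant, and the copia-like AT2G06950 had 1321, 1519, 1456 and 1067. AT2G06950 lay lower in double-mutant plants than in djc31 (log2 change -0.51 ± 0.12, adjusted p = 0.0039) and in djc62 (-0.44 ± 0.12, adjusted p = 0.015). The copia-like AT4G16870 varied widely between libraries of a genotype, with 789, 1037 and 405 in wild type, 585, 1607 and 1643 in djc31, 638, 1444 and 1233 in djc62, and 1229, 1330 and 1166 in the double mutant. Its lowest library in wild type and in each single mutant was 1 of the 3 libraries named above as low for abundant TE genes.

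ONSEN, a copia family known to be transcribed after heat stress, had few counted reads. Of its 8 loci only AT5G13205 was tested, with 11.2, 23.3 and 12.7 in wild type, 17.3, 17.2 and 12.7 in djc31, 25.6, 22.04 and 42.4 in djc62, and 43.4, 26.0 and 24.3 in the double mutant. The double-mutant and wild-type libraries did not overlap, but no comparison was called (adjusted p = 0.10 for the double mutant against wild type and 0.13 for djc62). The other 7 loci had 0 to 28 reads over all 12 libraries. AT4G08680, AT2G12210 and AT5G17125, TE genes known to be read in mutants of DNA methylation, had 1, 4 and 7 reads in all.

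Known genes of silencing and its control were measured beside the TE genes. The list held 28 genes of DNA methylation, RNA-directed DNA methylation and related silencing, all tested. It includes ROS1 and IBM1, which act against silencing, so counts over the list mix both roles. In djc31, 0 were higher and 5 lower than in wild type, beside 13.3% and 14.2% of all loci. These were the H3K9 methyltransferase SUVH4 (log2 change -0.57 ± 0.15), the RNA polymerase IV subunit NRPD1 (-0.75 ± 0.18), the Argonautes AGO4 (-0.39 ± 0.12) and AGO6 (-1.14 ± 0.34), and the dicer DCL2 (-0.55 ± 0.17), with adjusted p between 0.0044 and 0.027. In djc62, AGO1 was higher (0.45 ± 0.10) and AGO6 lower (-0.99 ± 0.34), 2 of 28 beside 26.7% of all loci. In the double mutant none was lower than in wild type, and the DNA glycosylase ROS1 (0.37 ± 0.12), AGO1 (0.59 ± 0.10) and VIM1 (0.41 ± 0.12) were higher, 3 of 28 beside 13.8% of all loci. Against djc31 the double mutant had 13 of the 28 higher and 0 lower, beside 15.3% and 16% of all loci, with a median log2 change of 0.47. These included MET1 (0.64 ± 0.13), SUVH4 (0.78 ± 0.15), NRPD1 (0.81 ± 0.18) and AGO4 (0.54 ± 0.12), and 11 of the 28 lay above the sum of the single-mutant changes, beside 15.8% of all loci. MET1 and DDM1 were not called against wild type in any mutant. The median log2 change of the 28 was -0.27, -0.04 and 0.19 in the 3 mutants, against -0.01, 0.00 and 0.02 over all loci. Any part of these genes in the TE gene values was not tested.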

How the data were processed

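RNA from 12 libraries was sequenced. The submitters' processing notes name Trimmomatic, FastQC, featureCounts and build TAIR10. Aligner, strand and multi-mapping settings are not stated there. The signal the authors deposited is a read count divided by a size factor per library. Dividing by each library's smallest step gave whole reads for 100% of values (tolerance 0.01). A count of 0 allows up to 3 reads, counting error only.

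Limma 3.58.1 (R 4.3.3) with a mean-variance trend was fitted on log2(value + 1) to all 12 libraries, 1 mean per genotype, with 8 residual degrees of freedom. The test covered loci reaching 10 in 3 or more libraries, with p-values adjusted by Benjamini-Hochberg over all 19975. Log2 changes understate low loci. Alternatives were edgeR 4.0.16, DESeq2 1.42.0, other pseudocounts and filters, a replicate block and left-out libraries. Families came from annotation text.

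The set's membership follows the annotation, but the choice of this set and of the lists was made with earlier results of these data known. Named TE genes are the 10 largest rises and falls against wild type and 5 in other comparisons, among non-overlapping calls with a mean of at least 10, the 10 of highest mean, the top 2 per family, the silent-to-read loci and ONSEN. Other loci of the shared patterns and neighbouring runs were named after their values were seen.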

Additional observations from a re-analysis of the deposited data

Results flagged for a closer look

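The change in the double mutant differed from the sum of both single-mutant changes (limma test of that non-additive contrast, adjusted p under 0.05) at 59 of the 154 tested TE genes, 38.3% beside 31.2% of all loci, 29 above the sum and 30 below it. Of the 125 TE genes that reached 10 in wild type and a mutant it was 40 (32%), 25 above and 15 below, beside 31.04% of all loci under the same condition. A locus that changes equally in all 3 mutants gives a value near the size of 1 mutant's change, with opposite sign, so the largest values belong to the loci already described. On the log2(value + 1) scale the silent-to-read loci lay below the sum, with -10.25 at AT3G42806, -9.17 at AT5G35935, -9.12 at AT4G08110, -8.57 at AT3G43690, -8.42 at AT3G42052, -7.62 at AT3G29120, -6.97 at AT3G29776, -5.76 at AT1G11150 and -5.73 at AT1G27285. Other risers followed with -6.63 at AT1G10160, -6.09 at AT3G28160, -5.60 at AT3G43715, -4.07 at AT1G20390 and -2.30 at AT5G55896. Loci that fell in all mutants lay above the sum, with 6.22 at AT3G29156, 4.63 at AT3G29650, 4.50 at AT2G01550, 3.95 at AT3G45095 and 3.43 at AT5G64685.

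At other loci the double mutant returned toward wild type, passed it, or lay apart from single mutants that were not called. The last held at AT1G47565, AT2G06950, AT2G11150, AT2G17490 and AT3G21030. The contrast was 4.26 at AT2G36040, 4.02 at AT5G35495, 2.97 at AT1G43675, 2.90 at AT4G11200 and 1.60 at AT2G26215, loci that were low in 1 or both single mutants. The LINE AT5G35495, for example, had 14.2, 14.5 and 15.1 in wild type, 5.31, 8.59 and 2.53 in djc31, 1.16, 0.848 and 0 in djc62, and 7.81, 8.93 and 10.04 in the double mutant. It was 4.10 at AT3G21040, 3.87 at the copia-like AT2G17490, 2.29 at AT3G21030 and 1.43 at AT1G47565, where the double mutant had the highest mean. It was -2.75 at the copia-like AT1G58561, which had means of 89.7, 173, 250.2 and 68.5 in wild type, djc31, djc62 and the double mutant, and -2.47 at AT2G11150, -2.21 at AT1G43590, -0.72 at SADHU1-1 (AT2G10410) and -0.65 at AT2G06950. AT1G58561 overlaps the protein-coding AT1G58602, which had means of 3362, 2851, 4260 and 2654 in the same order. Reads of the pair cannot be told apart without strand.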

How the results depend on the processing

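Over pseudocounts of 0.5 and 5, a filter on a mean of at least 5, edgeR, DESeq2 and the replicate block, the counts against wild type ran from 29 to 36 higher and 20 to 33 lower. Without a filter (1183 TE genes) the double mutant had 18 higher than djc31 and 11 lower than djc62, and djc62 had 7 higher than djc31, which was 5 with DESeq2. Leaving out each library gave 26 to 35 higher and 11 to 26 lower for djc31 against wild type, 25 to 29 and 17 to 31 for djc62, 27 to 37 and 10 to 22 for the double mutant, 6 to 18 and 11 to 16 for the double mutant against djc31, 10 to 19 and 4 to 8 against djc62, and 1 to 6 and 7 to 15 for djc62 against djc31. With the tested loci kept, a setting chosen after seeing the data, the lower counts against wild type were 16 to 26, 21 to 31 and 14 to 22. Without wild-type replicate 3, djc31 replicate 1 and djc62 replicate 1, also chosen after seeing the data, the double mutant had 16 TE genes higher than djc31 and djc62 had 6, and AT4G16870 turned to -0.39 (log2, double mutant against djc31). The TE share without SADHU1-1 was 0.0829% in djc31 and 0.106% in the double mutant. The cause of these moves was not tested.

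Same-numbered libraries of different genotypes did not deviate together (correlations from -0.15 to 0.11 over 18 pairs). With the replicate number as a block the counts were 30 and 22, 29 and 28, and 34 and 20 against wild type. The TE genes with 1 to 9 reads in all were too shallow to compare.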
